A study of Homo sapiens with 12 samples.

Results

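The genes described here encode subunits of the mitochondrial respiratory chain and of ATP synthase, measured by RNA sequencing in DU145, a human prostate cancer cell line. They were taken by symbol, as every protein-coding gene in either deposited table whose symbol starts with NDUFA, NDUFB, NDUFC, NDUFS, NDUFV, SDH, UQCR, COX4 to COX8, ATP5F, ATP5M or ATP5P. These prefixes take 101 annotated genes, of which 9 were in at least 1 of the tables. NDUFA7, NDUFB7, NDUFA4L2 and ATP5PD were among the 1810 genes of the RSL3 table. NDUFA7, NDUFB7, NDUFB10, NDUFS8, NDUFAF3, ATP5F1D and ATP5ME were among the 1424 genes and assembled loci of the ATOH8 table. NDUFA7 and NDUFB7 were therefore the 2 genes present in both. The prefixes also take assembly factors, whose symbols start with NDUFAF and SDHAF, and NDUFAF3 was the 1 of these that was listed.

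The study has 12 libraries in 4 groups of 3. DU145 cells labelled WT were given RSL3 for 24 h and were set against DU145 cells labelled WT that were given DMSO, the solvent control. RSL3 binds the lipid peroxide reductase GPX4 and starts ferroptosis, an iron-dependent form of cell death. In the other comparison, DU145 cells that overexpress ATOH8, a transcription factor of the basic helix-loop-helix family (genotype OE ATOH8, written oeATOH8), were set against DU145 cells with the control (genotype OE CTRL, written oeCTRL), and the labels name no drug for either. The dose of RSL3, the expression construct, its promoter and whether the lines are clones are not given in the sources used here. The labels do not say that the 3 libraries of a group come from separate cultures, so a p-value measures only the spread between these libraries, which may be technical.

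The respiratory chain passes electrons from NADH and succinate through complexes I to IV to oxygen and pumps protons across the inner mitochondrial membrane. ATP synthase lets the protons flow back through its membrane part and turns the movement of its central stalk into ATP. Most subunits are encoded in the nucleus, made in the cytosol and imported, while a few core subunits are encoded by mitochondrial DNA. In most tissues the nuclear genes are expressed at a steady level, and promoters of several of them are known to bind the factors NRF1, GABP (an ETS factor) and YY1.

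Both tables hold a selection of genes, with a gap in the fold changes around no difference. They appear to hold only genes that the authors called different in these same libraries. A pass in the tests below is therefore no independent support for a difference, and the adjusted p-values do not allow for that selection. The 92 genes that the prefixes take and that are in neither table were not analysed here, so nothing is said about their level or about a whole complex. By complex, 4 of 38 complex I genes, 1 of 8 complex I assembly factors, 1 of 19 complex IV genes and 3 of 19 ATP synthase genes were in at least 1 table. None of the 4 complex II genes, the 4 complex II assembly factors or the 9 complex III genes with these prefixes was in either. NDUFA4L2 is counted with complex IV, since its close relative NDUFA4 is a subunit of that complex.

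Reads over the listed genes ranged from 2523743 in DMSO library 3 to 3096832 in RSL3 library 3, and from 1508188 in oeCTRL library 2 to 2226518 in oeATOH8 library 1. These sums are not library depths, which are not given in the sources used here. Libraries 2 and 3 were apart by little more than counting error, with a chi-square over its degrees of freedom of 1.80 in RSL3 and 1.64 in DMSO, against 59.1 to 101 for pairs that include a library numbered 1. The libraries numbered 1 therefore stand apart in both the RSL3 and the DMSO group, and libraries 2 and 3 of these groups differ hardly more than repeat runs of a single sample would. The same measure was 39.3 and 29.6 for oeATOH8 library 1 with libraries 2 and 3, and 12.8 for oeATOH8 libraries 2 and 3. Between oeCTRL libraries it was 6.34 to 9.23. Over 1343 genes with a transcript sequence, the deviation of RSL3 library 1 from its group mean followed the GC content of the transcript with a Spearman rho of 0.61, and that of DMSO library 1 with a rho of 0.53. ATOH8 itself had scaled counts of 73596, 73673 and 72972 in oeATOH8 cells and of 12.5, 10.2 and 4.07 in oeCTRL cells. In the RSL3 table ATOH8 had 357.6, 428.7 and 470.2 normalised counts in RSL3 and 26.4, 35.1 and 40.1 in DMSO. GPX4 was in neither table. Of 6 epithelial markers of DU145, CDH1, CLDN7 and EPCAM were in the RSL3 table, with a summed level of 195.5 to 393.2 in RSL3 and 1005 to 1053.5 in DMSO. CDH1 and KRT8 were in the ATOH8 table, with a summed level of 5915 to 6630 in oeATOH8 and 16944 to 17288 in oeCTRL. Of 4 luminal prostate, 4 fibroblast, 4 immune and 3 endothelial markers, only CD68 was in the RSL3 table, at 1498 to 4290 in RSL3 and 787.3 to 1607 in DMSO, and only COL3A1 in the ATOH8 table, at 55.8 to 84.5 in oeATOH8 and 0 to 5.09 in oeCTRL. The part of these markers in the results below was not tested. In bulk RNA, fewer cells of a type and less RNA per cell cannot be told apart.

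The promoters of the genes in both tables, NDUFA7 and NDUFB7, and those of the ATP synthase genes ATP5PD and ATP5ME are shown because they hold the matches to NRF1, ETS and YY1 letters found among the 8 of the 9 genes that matched the RefSeq promoter table (build GRCh38.p14). ATP5F1D is named only. Each sequence runs 5′ to 3′ along the strand of its gene, from 250 bases before to 50 bases after the annotated start. Capitals mark the NRF1 core GCATGCGC, the ETS letters CCGGAAG and the YY1 letters AAGATGGC on either strand. NDUFA7 lies at chr19:8321326-8321625, NDUFB7 at chr19:14572017-14572316, ATP5PD at chr17:75046920-75047219 and ATP5ME at chr4:674227-674526, and all 4 are read from the minus strand.
NDUFA7: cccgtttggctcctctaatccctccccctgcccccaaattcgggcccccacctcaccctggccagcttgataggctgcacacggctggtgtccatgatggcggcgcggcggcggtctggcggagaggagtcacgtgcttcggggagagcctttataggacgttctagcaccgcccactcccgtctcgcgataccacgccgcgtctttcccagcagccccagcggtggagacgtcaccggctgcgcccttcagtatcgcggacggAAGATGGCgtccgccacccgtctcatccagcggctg
NDUFB7: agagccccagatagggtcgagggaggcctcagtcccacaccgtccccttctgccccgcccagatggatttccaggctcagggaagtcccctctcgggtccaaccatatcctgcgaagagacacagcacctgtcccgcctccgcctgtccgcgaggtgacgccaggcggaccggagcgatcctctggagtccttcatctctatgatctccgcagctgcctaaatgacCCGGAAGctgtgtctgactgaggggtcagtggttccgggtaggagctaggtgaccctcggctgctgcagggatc
ATP5PD: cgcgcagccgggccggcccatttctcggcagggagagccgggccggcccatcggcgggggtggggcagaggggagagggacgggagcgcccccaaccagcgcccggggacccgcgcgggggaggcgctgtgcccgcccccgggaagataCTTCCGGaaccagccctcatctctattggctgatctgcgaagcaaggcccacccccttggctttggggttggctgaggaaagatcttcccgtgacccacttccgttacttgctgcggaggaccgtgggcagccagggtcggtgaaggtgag
ATP5ME: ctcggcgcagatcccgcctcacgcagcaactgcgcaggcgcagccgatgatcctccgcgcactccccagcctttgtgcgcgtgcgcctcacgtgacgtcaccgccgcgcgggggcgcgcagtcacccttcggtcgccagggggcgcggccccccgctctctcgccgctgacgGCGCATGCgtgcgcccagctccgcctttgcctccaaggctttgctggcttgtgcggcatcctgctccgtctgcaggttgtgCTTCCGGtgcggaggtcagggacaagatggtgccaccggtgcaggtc

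Some genes have several annotated starts, so the 8 genes have 12 windows, and a gene was counted once if any of its windows held the letters. The share given beside each count is that of all 27305 genes of the promoter table, counted the same way over 35116 windows. Positions are counted from the annotated start as 1, with negative positions before it. The ETS letters were found in NDUFB7 at position -24, in ATP5PD at position -101 and in ATP5ME at position 4, which is 3 of 8 genes, against 12.2% of all genes. The NRF1 core was found in 1 gene, ATP5ME, at position -78, against 3.68% of all genes. The YY1 letters were found in 1 gene, NDUFA7, at position 15, against 3.52%. Among general promoter elements, the SP1 GC box GGGCGG was found in 5 of 8 genes, against 48.3%. The CCAAT box was found in 3 genes, against 39.7%, and NDUFS8 alone held 4 copies. The TATA letters TATAAA were found in 1 gene, NDUFA7, against 14.0%. The antioxidant response letters TGACNNNGC were found in 2 genes, ATP5ME and NDUFAF3, against 16.1%, and in ATP5ME the match at position -83 overlaps the NRF1 core. The AP-1 letters TGANTCA (9.37% of all genes) and the ATF4 letters TGATGCAA (1.08%) had no match in these windows. NDUFA4L2 held none of the letters searched and NDUFB10 held a GC box alone. All searches covered both strands, and a match is a description of the sequence only.

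The RSL3 comparison asks which genes change when DU145 cells are driven towards ferroptosis. All 4 listed genes had a higher mean with RSL3 than with DMSO, and 3 of the 4 passed the test. NDUFA4L2, a relative of the complex IV subunit NDUFA4 known for its induction by low oxygen, rose 4.81-fold. ATP5PD, subunit d of the peripheral stalk of ATP synthase, rose 1.48-fold. Of the complex I genes, NDUFA7 rose by 0.63 on the log2 scale and passed, while NDUFB7, with a slightly larger difference, did not. Their limma adjusted p of 0.0463 and 0.0508 lie close to each other on either side of the threshold. Levels are normalised read counts, and the test was limma on log2(value + 1) with a Benjamini-Hochberg adjusted p under 0.05 over the 1732 listed genes that passed a filter on low counts, which all 4 did. Of those 1732 genes, 82% passed in either direction, 43.1% as higher and 38.9% as lower, so a pass is the usual outcome for a listed gene. Of the 1810 listed genes, 52.9% were higher with RSL3.

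NDUFA7 is an accessory subunit of the arm of complex I that extends into the matrix, and the table places it at chr19:8308595-8321375 on the minus strand (GRCh38). It had 2120, 1629 and 1682 normalised counts in RSL3 and 1619, 1006 and 960.1 in DMSO. The groups did not overlap, but RSL3 library 2 lay just above DMSO library 1. The log2 fold change was 0.63 with a standard error (SE) of 0.24 and a limma adjusted p of 0.0463.

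NDUFB7 is an accessory subunit on the intermembrane space side of the membrane arm of complex I and lies at chr19:14566078-14572066 on the minus strand. It had 2502, 1392 and 1459 normalised counts in RSL3 and 1439, 845.2 and 921.7 in DMSO. The groups overlapped, since DMSO library 1 was above RSL3 library 2, while within each library number the RSL3 value was the higher. The log2 fold change was 0.73 (SE 0.30) with a limma adjusted p of 0.0508. With the library number as a block, the limma adjusted p was 0.0028 and NDUFB7 passed, which made it 4 of 4 genes. With that block 1720 of the 1732 tested genes passed, so passing was the usual outcome there too.

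NDUFA4L2, which RefSeq now names COXFA4L2, lies at chr12:57234903-57240762 on the minus strand. It had 217.2, 66.6 and 61.0 normalised counts in RSL3 and 22.0, 30.5 and 19.2 in DMSO, from 150, 71 and 65 recovered reads in RSL3 and 20, 40 and 22 in DMSO. The groups did not overlap, and RSL3 library 1 was far above the other 2 RSL3 libraries. NDUFA4L2 rose by 1.99 on the log2 scale (SE 0.51, limma adjusted p = 0.0263). Without RSL3 library 1 the ratio of means was 2.67, and within library number 1 alone it was 9.88. By log2 fold change it ranked 31 of 1732, whereas NDUFB7 ranked 521, NDUFA7 698 and ATP5PD 797.

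ATP5PD belongs to the peripheral stalk, which holds the catalytic head of ATP synthase still while the central stalk turns, and lies at chr17:75038863-75046969 on the minus strand. It had 3395, 2583 and 2509 normalised counts in RSL3 and 2216, 1717 and 1794 in DMSO. The groups did not overlap and the library numbered 1 was the highest in each. On the log2 scale the rise was 0.56 (SE 0.20), with a limma adjusted p of 0.0407.

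**Figure D1:**
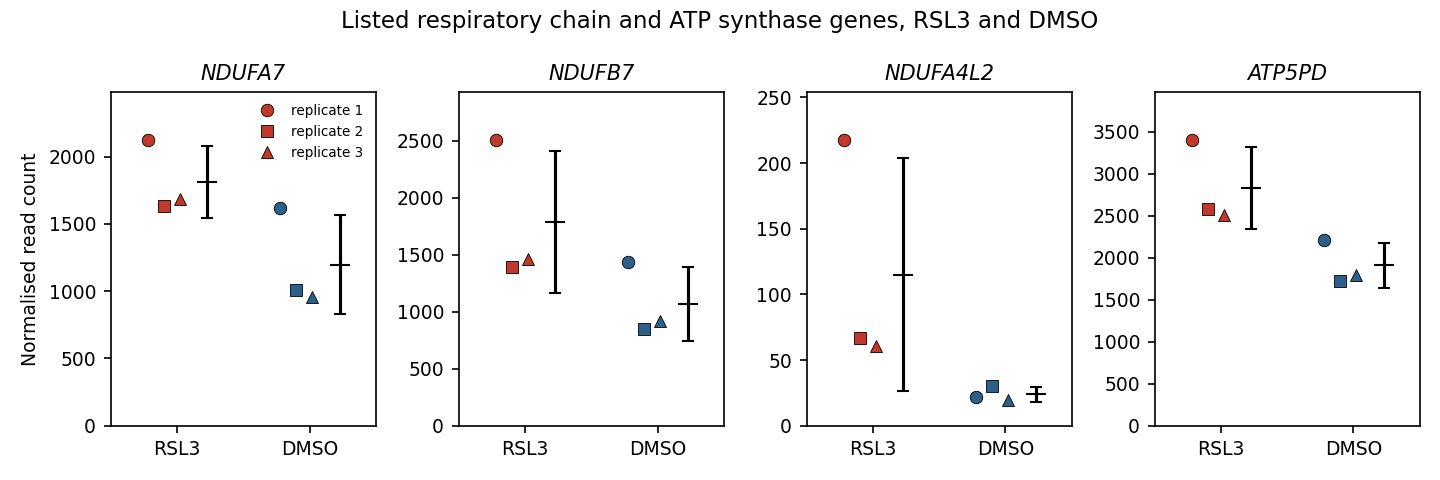
Normalised read count of the 4 listed genes in each RSL3 and DMSO library (red, RSL3; blue, DMSO; marker shape gives the library number; bars give mean ± SD, n = 3). Every axis starts at 0. RSL3 library 1 is the highest value in all 4 panels, and the groups overlap only for NDUFB7.

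The libraries of the groups did not overlap for 3 of the 4 genes, against 86.4% of the 1810 listed genes in either direction and 48.5% as higher. Within library numbers 1, 2 and 3, the log2 difference of RSL3 over DMSO was 0.39, 0.69 and 0.81 for NDUFA7 and 0.80, 0.72 and 0.66 for NDUFB7. It was 0.62, 0.59 and 0.48 for ATP5PD and 3.25, 1.10 and 1.62 for NDUFA4L2. Each of these differences was positive. The labels do not pair equal numbers, and libraries 2 and 3 are not clearly separate, so these are not 3 independent comparisons. How many of all listed genes had differences of 1 sign throughout was not counted. The median log2 fold change of the 4 genes was 0.68, or 0.63 without NDUFA4L2, against 0.51 over all 1732 tested genes and 0.76 over the 929 of them with a positive fold change. With both libraries numbered 1 left out, all 4 genes passed in limma, with log2 fold changes of 0.75 for NDUFA7, 0.69 for NDUFB7, 0.54 for ATP5PD and 1.36 for NDUFA4L2. That fit rests on libraries 2 and 3 of each group alone, which differ hardly more than repeat runs would. In it 1758 of 1778 tested genes passed, so these passes add little. The calls rest on the scale and on the libraries. Scaled by totals, by trimmed means (TMM) or by relative log expression in place of the authors' size factors, only NDUFA4L2 passed, and no gene passed with p-values adjusted over every annotated gene, with libraries 2 and 3 averaged, without DMSO library 2 or without DMSO library 3. Without RSL3 library 2 or RSL3 library 3, NDUFA4L2 was the 1 gene that passed, and without RSL3 library 1, NDUFA4L2 and ATP5PD passed.

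The ATOH8 comparison asks which genes change when ATOH8 is overexpressed. All 7 listed genes rose in oeATOH8 cells, between 2.01-fold for NDUFB7 and 2.95-fold for ATP5ME. They comprise 4 complex I subunits (NDUFA7, NDUFB7, NDUFB10 and NDUFS8), the complex I assembly factor NDUFAF3 and the ATP synthase subunits ATP5F1D and ATP5ME. All 7 passed edgeR's quasi-likelihood test at a Benjamini-Hochberg adjusted p under 0.05, and no library of one group overlapped the other. This is the background of the table: 100% of the 1424 listed genes and loci passed, 99.6% had groups that did not overlap, 41.4% passed as higher and 58.6% as lower. Values are read counts scaled so that the gap in fold changes of the listed genes was centred on 0. No listed gene lay between log2 ratios of -1 and 1 on that scale, so a rise of about 2-fold is the smallest the table shows.

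NDUFS8 is a core subunit of complex I that carries iron-sulfur clusters in the matrix arm, and GENCODE places it at chr11:68030617-68036644 on the plus strand (GRCh38). It had 3161, 3304.5 and 3267.5 scaled counts in oeATOH8 and 1544, 1414 and 1297 in oeCTRL. Its lowest oeATOH8 library was above its highest oeCTRL library by more than the range of either group. The log2 fold change was 1.19 (SE 0.08) with an edgeR adjusted p of 6.8e-08.

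NDUFB10 is an accessory subunit of the membrane arm that faces the intermembrane space, at chr16:1959508-1961975 on the plus strand. It had 1888, 1689 and 1560.3 scaled counts in oeATOH8 and 781.7, 710.6 and 734.3 in oeCTRL. The oeATOH8 libraries spread more widely than the oeCTRL libraries, and the groups stayed apart. NDUFB10 rose by 1.21 on the log2 scale (SE 0.09, edgeR adjusted p = 1.3e-07).

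NDUFA7 had 1361, 1190 and 1095 scaled counts in oeATOH8 and 553.4, 561.1 and 579.7 in oeCTRL. All 3 oeCTRL libraries lay within a narrow range below all oeATOH8 libraries. The rise of NDUFA7 was 1.11 on the log2 scale (SE 0.09, edgeR adjusted p = 4.9e-07). NDUFB7 had 861.9, 899.5 and 808.0 scaled counts in oeATOH8 and 481.5, 436.2 and 359.0 in oeCTRL, a rise of 1.01 on the log2 scale (SE 0.12, edgeR adjusted p = 7.2e-06). NDUFB7 thus sat at the edge of the gap, with the smallest difference of the 7.

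NDUFAF3 helps to build the matrix arm of complex I and lies at chr3:49020459-49023495 on the plus strand. It had 1731.5, 1673 and 1670 scaled counts in oeATOH8 and 867.0, 856.0 and 782.1 in oeCTRL. Both groups were tight, and its difference was also close to the edge of the gap. NDUFAF3 rose by 1.02 on the log2 scale (SE 0.07, edgeR adjusted p = 1.2e-07).

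ATP5F1D is the delta subunit of the central stalk of ATP synthase, at chr19:1241746-1244826 on the plus strand. It had 3343, 3062 and 3440.2 scaled counts in oeATOH8 and 1669, 1480 and 1362 in oeCTRL, a rise of 1.13 on the log2 scale (SE 0.09, edgeR adjusted p = 2.5e-07). ATP5ME is subunit e of the membrane part, where ATP synthase dimers meet, at chr4:672436-674338 on the minus strand. It had 339.6, 370.6 and 303.2 scaled counts in oeATOH8 and 130.4, 90.1 and 123.1 in oeCTRL, and the groups were far apart. ATP5ME rose by 1.56 on the log2 scale (SE 0.19, edgeR adjusted p = 1.2e-05) and ranked 131 of 1424, against 325 for NDUFB10 and 339 for NDUFS8.

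**Figure D2:**
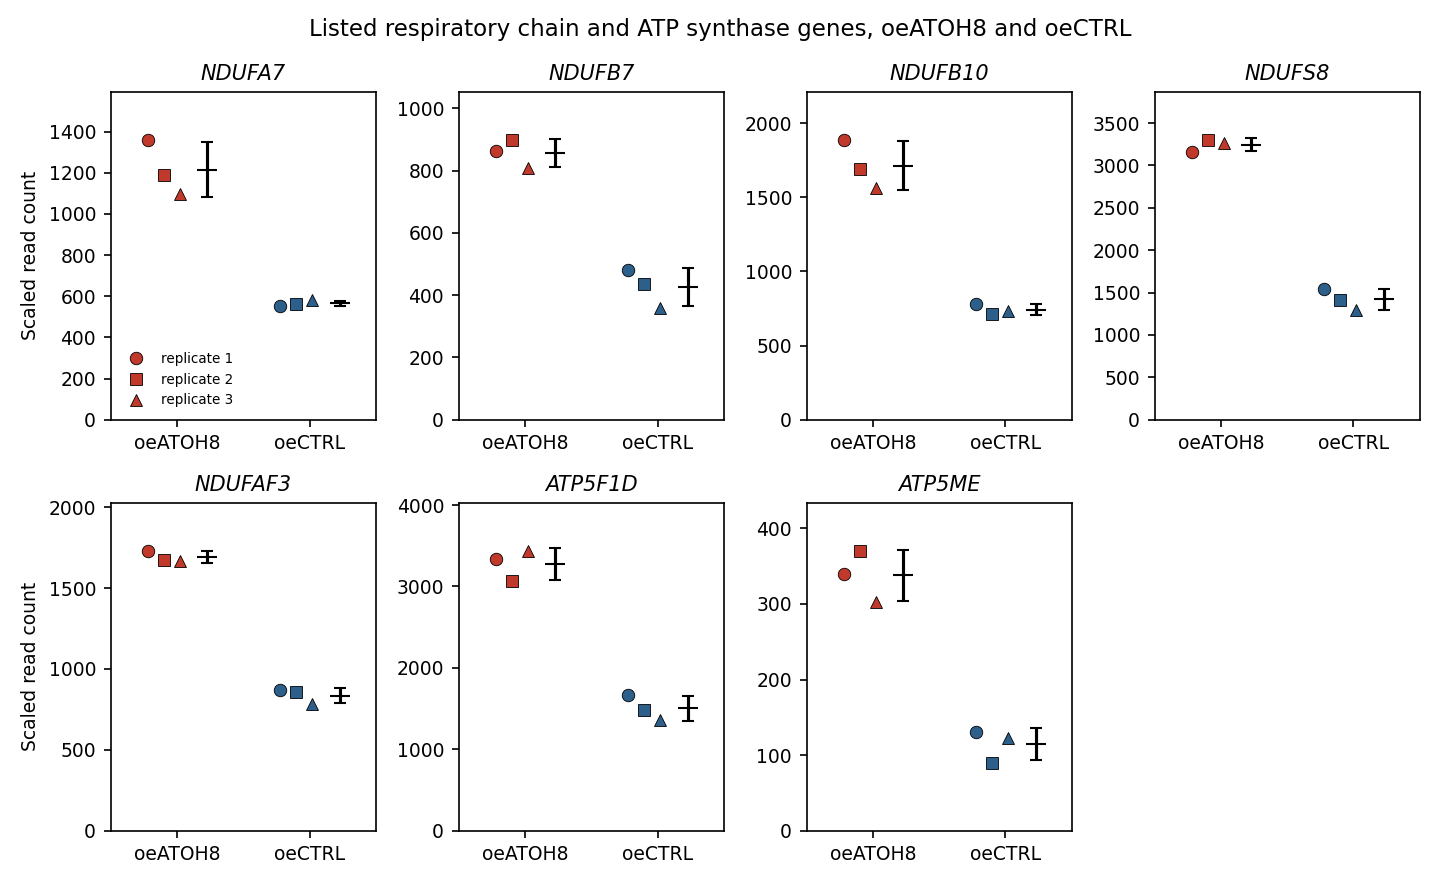
Scaled read count of the 7 listed genes in each oeATOH8 and oeCTRL library (red, oeATOH8; blue, oeCTRL; marker shape gives the library number; bars give mean ± SD, n = 3). Every axis starts at 0. In all 7 panels the oeATOH8 libraries lie above the oeCTRL libraries.

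Each of the 7 genes was higher in oeATOH8 in 3 of 3 libraries than in any oeCTRL library. Their median log2 fold change was 1.13, against -1.10 over all 1424 listed genes and loci and 1.24 over the 589 that were higher. The size depends on the scale, with medians of 0.67 by totals, 1.43 by TMM and 2.03 by relative log expression, while all 7 stayed higher and passed edgeR on each of these scales.

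Levels per kilobase were taken over the longest protein-coding GENCODE transcript of each gene, and their order depends on that choice. NDUFAF3 had the longest of these among the 7 genes of the ATOH8 table, at 2012 bases. In oeATOH8 cells the level of the 7 genes was highest for NDUFS8, at 4101.5 scaled counts per kilobase, and lowest for NDUFAF3, at 840.7. In oeCTRL cells it was highest for NDUFS8, at 1793 scaled counts per kilobase, and lowest for ATP5ME, at 313.8, with NDUFAF3 at 415.0. In the RSL3 table, ATP5PD had the highest level, at 4692 normalised counts per kilobase in RSL3 and 3166 in DMSO. NDUFA4L2 had the lowest, at 96.9 normalised counts per kilobase in RSL3 and 20.2 in DMSO. It was thus a low transcript in both groups, below NDUFA7 at 3012 normalised counts per kilobase in RSL3 and 1989 in DMSO.

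NDUFA7 and NDUFB7 were the genes in both tables. NDUFA7 averaged 1810.3 ± 269.3 normalised counts in RSL3 and 1195 ± 367.8 in DMSO, and 1215 ± 134.9 scaled counts in oeATOH8 and 564.7 ± 13.5 in oeCTRL (SD, n = 3 each). NDUFB7 averaged 1784.5 ± 622.4 normalised counts in RSL3 and 1068.5 ± 322.9 in DMSO, and 856.5 ± 46.0 scaled counts in oeATOH8 and 425.6 ± 61.9 in oeCTRL (SD, n = 3 each). Both genes were on the higher side in both comparisons. The smallest rise listed is larger in the ATOH8 table than in the RSL3 table and the tables were scaled separately, so the difference between the comparisons was not tested. The comparisons use separate controls.

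**Figure D3:**
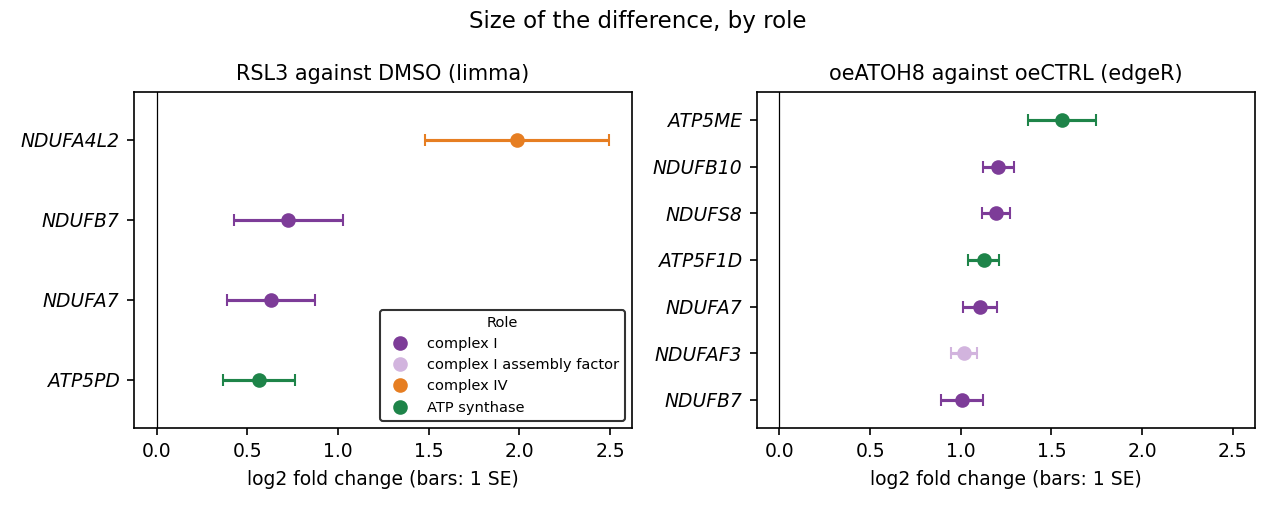
Log2 fold change of each listed gene, RSL3 over DMSO on the left (limma) and oeATOH8 over oeCTRL on the right (edgeR), coloured by role, with bars of 1 SE. NDUFA4L2 at 1.99 stands above the other 3 genes of the RSL3 table, which lie between 0.56 and 0.73, and the 7 genes of the ATOH8 table lie between 1.01 and 1.56.

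Several of these genes overlap others in GENCODE, and whether reads were counted by strand is not given in the sources used here, so reads of overlapping genes cannot be told apart. NDUFA7 shares 239 bases with RPS28, a gene of the small ribosomal subunit on the opposite strand, and 12612 bases with AC010323.1 on the same strand. RPS28 had 5390, 5258 and 4881.5 scaled counts in oeATOH8 and 2803, 2435 and 2447 in oeCTRL, a rise of 2.02-fold with an edgeR adjusted p of 1.9e-07. NDUFA7 rose 2.15-fold in the same libraries. ATP5ME shares 759 bases with MYL5 on the opposite strand, which was in the RSL3 table and not in the ATOH8 table. NDUFA4L2 shares 33 bases with SHMT2, an enzyme gene of serine metabolism on the opposite strand that was also in the RSL3 table. SHMT2 had 25142, 13116 and 13025 normalised counts in RSL3 and 10999, 9737 and 9615.5 in DMSO, far more than NDUFA4L2 in every library, with RSL3 library 1 again the highest (log2 fold change 0.69, SE 0.29, limma adjusted p = 0.0516). ATP5PD shares 8123 bases with KCTD2 and NDUFAF3 shares 1835 with DALRD3, both on the opposite strand, and NDUFS8 overlaps the microRNA genes MIR7113 and MIR4691. The part of these overlaps in the results was not tested.

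The transcripts of the listed genes were short, taking the longest GENCODE transcript of each gene, protein-coding where there was one. The median transcript of the 4 genes of the RSL3 table had 602 bases, against 2938.5 over the listed genes with a transcript and 2289.5 over those that were higher. Their median GC content was 59.3% (range 45.1 to 65.0), against 54.4% over listed genes, 58.6% over higher genes and 48.2% over lower genes. For the 7 genes of the ATOH8 table the median length was 791 bases, against 2942 over the listed genes and 2181 over those that were higher. Their median GC content was 63.3%, against 54.9% over listed genes, 59.1% over higher genes and 50.8% over lower genes. A transcript sequence was available for 93.5% of the RSL3 table and 80.6% of the ATOH8 table. NDUFB7 and NDUFA4L2 were the members of the RSL3 table with the highest GC content, at 65.0% and 62.9%, and ATP5PD had the lowest, at 45.1%. The part of GC content and length in the fold changes was not tested.

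The other genes of the respiratory machinery were followed in lists by role. Of 45 assembly factors of the complexes outside the prefixes, 7 were in the RSL3 table, and all 7 rose with RSL3. SURF1, which helps to assemble complex IV, averaged 2329 ± 618.9 normalised counts in RSL3 and 1389.5 ± 187.3 in DMSO (limma adjusted p = 0.0364). ECSIT, a complex I assembly factor, rose 1.73-fold, TACO1, which activates translation of a complex IV core subunit, rose 1.70-fold, and FMC1, an ATP synthase assembly factor, rose 1.50-fold. Of the 45, 6 were in the ATOH8 table, of which 5 rose and 1 fell. UQCC3, which helps to assemble complex III, averaged 1077 ± 61.2 scaled counts in oeATOH8 and 432.4 ± 38.4 in oeCTRL, and ACAD9 (complex I) and HIGD2A (complex IV and supercomplexes) rose 2.20-fold and 2.16-fold. COX16, a complex IV assembly factor, fell, with 418.4, 378.7 and 433.7 scaled counts in oeATOH8 and 865.1, 829.4 and 826.9 in oeCTRL (log2 fold change -1.03, SE 0.09, edgeR adjusted p = 9.1e-07), although by relative log expression scaling it did not pass (edgeR adjusted p = 0.256). No gene of this list was in both tables.

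CYC1, the cytochrome c1 subunit of complex III, was the 1 gene listed out of 11 other electron carriers and ATP synthase regulators, and it was in both tables. It had 20586, 15130.2 and 14759 normalised counts in RSL3 and 12026, 9032 and 8970 in DMSO, and rose by 0.75 on the log2 scale (SE 0.23, limma adjusted p = 0.0352). It had 5494, 5941 and 6324 scaled counts in oeATOH8 and 2738, 2635 and 2637 in oeCTRL, and rose by 1.15 on the log2 scale (SE 0.07, edgeR adjusted p = 3e-08). Neither pair of groups overlapped for CYC1. Of 13 genes of ubiquinone synthesis, COQ9 and COQ8A were in the RSL3 table and rose 1.65-fold and 1.72-fold, and none was in the ATOH8 table.

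The mitochondrial ribosome makes the subunits that mitochondrial DNA encodes, and of its 77 protein genes 12 were in the RSL3 table, of which 9 rose, 1 fell (MRPL39, by 0.59 on the log2 scale) and 2 did not pass. MRPS16 rose 1.67-fold and MRPL24 rose 2.15-fold with RSL3. The ATOH8 table held 5, and all 5 rose, among them MRPL12 at 2.75-fold and MRPL24 at 2.72-fold, and MRPL12 and MRPL24 were in both tables. Of 44 genes of mitochondrial protein import and cristae, 10 were in the RSL3 table, all with a higher mean with RSL3, and 7 passed. TOMM22, a receptor of the outer membrane translocase, rose 1.67-fold, and CHCHD10, a protein of the intermembrane space, rose 1.74-fold. In the ATOH8 table TIMM13 rose 3.35-fold, MICOS13 2.84-fold and CHCHD10 2.91-fold, and these were the 3 listed. Among 21 citric acid cycle genes, IDH3B rose 1.54-fold with RSL3, whereas ACO1, a cytosolic aconitase, averaged 971.9 ± 416.1 normalised counts in RSL3 and 1740 ± 472.2 in DMSO and did not pass (limma adjusted p = 0.0545; 0.00374 with the library number as a block). None of the 37 mitochondrial DNA genes was in either table. Of 15 regulators of mitochondrial biogenesis, PPRC1 was in the RSL3 table, with a log2 fold change of 0.51 (SE 0.21) that did not pass (limma adjusted p = 0.0522; 0.00469 with the block).

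**Figure D4:**
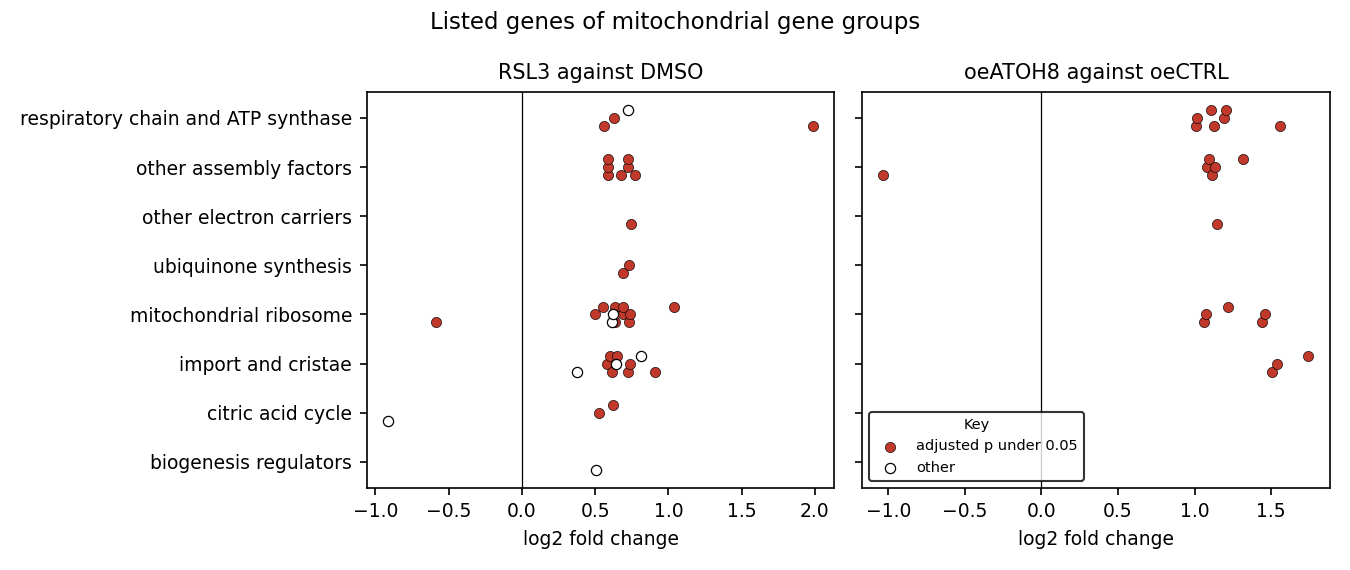
Log2 fold change of each listed gene in the 8 mitochondrial gene groups on the vertical axis, RSL3 over DMSO on the left and oeATOH8 over oeCTRL on the right. Filled points passed the test and open points did not. Nearly all points lie to the right of 0, and the genes of these groups on the left are MRPL39 and ACO1 with RSL3 and COX16 in oeATOH8.

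For comparison outside mitochondria, 22 of 88 cytosolic ribosomal protein genes were in the RSL3 table, all with a higher mean with RSL3, and 11 passed, or 22 with the library number as a block. Over all 1732 tested genes 82% passed, or 1720 genes with the block, and 52.9% of the 1810 listed genes were higher. The ATOH8 table held 4, and all 4 rose, against 41.4% of its 1424 genes and loci. Of 40 proteasome subunits, 5 were in the RSL3 table, of which PSMD4 and PSMD9 rose and the immunoproteasome subunits PSMB8 and PSMB9 fell. The median log2 fold change with RSL3 was 0.65 over the listed cytosolic ribosomal genes and 0.68 over the listed assembly factors, close to the 0.68 of the 4 respiratory chain and ATP synthase genes. In oeATOH8 cells the medians were 1.16, 1.10 and 1.13 for the same groups. The smallest rise in the ATOH8 table was 1.00 on that scale, set by the selection, and the median over its 589 higher genes was 1.24. No difference between these groups was tested. With both libraries numbered 1 left out, 1758 of 1778 tested genes passed in limma. Among them were 7 assembly factors, 12 mitochondrial ribosomal genes and 10 import and cristae genes, which is every listed gene of these 3 lists. By totals scaling 2, 1 and 1 genes of these lists passed, and without RSL3 library 1 it was 4, 3 and 3. Without any other single library of the RSL3 or DMSO groups but DMSO library 1 it was none.

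The genes outside the group whose log2 values followed its mean most closely over 6 libraries were sought among listed genes whose mean was 50 or more. In the RSL3 table these included UBTD1, SLC48A1, RAET1G and CLU, with Pearson r of 0.9979 to 0.9994. In the ATOH8 table they were UBE2M, PFN1, RPS28, MUS81 and FMNL1, with Pearson r of 0.9988 to 0.9995. Such values are common here, since 538 of 1373 genes in the RSL3 table and 353 of 1045 in the ATOH8 table had an r over 0.95. The 6 points of each comparison fall into 2 groups and share libraries and scaling.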

How the data were processed

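RNA of 12 DU145 libraries was compared in 2 tables. TRIzol was used to extract the RNA, per the labels. The tools listed in the submitters' processing notes are fastp, HISAT2, StringTie and DESeq2 (no version or role given), with the builds hg38 and GRCh38. The authors' deposited RSL3 table gives a normalised signal per gene. Its values were whole multiples of 1 step per library for 100% of values within a tolerance of 0.001, so whole reads were recovered. The authors' deposited ATOH8 table gives raw read counts. There, OE columns were taken as oeATOH8 and NC columns as oeCTRL.

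RSL3 rows were named by position and strand (overlap of at least 0.5 of the span) with RefSeq or GENCODE, and ATOH8 rows by Ensembl identifier. For RSL3, limma (version 3.58.1) was run on log2(value + 1) with the authors' scaling left as it was, in place of the count test first planned. A filter on low counts (filterByExpr with a minimum count of 10 and a minimum total of 15) took out 78 genes. For ATOH8, edgeR (version 4.0.16) was run on the counts after centring the gap in log2 ratios, which lay between -0.97 and 1.03, on 0. This assumes symmetric fold limits. DESeq2 (version 1.42.0) and other settings were alternatives, in R 4.3.3. Tests were two-sided, adjusted over listed genes, and the code was tested on simulated data.

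Deviations of equally numbered libraries correlated at 0.68, 0.61 and 0.61 in the RSL3 table, so the numbers were used as a block there, from the data and not from the labels. RSL3 library 2 with DMSO library 3 (0.633) and RSL3 library 3 with DMSO library 2 (0.581) correlated about as highly, so the data set number 1 apart and do not tell the pairing of 2 from that of 3. In the ATOH8 table equal numbers correlated at 0.038, 0.053 and 0.074. All listed members were named, up to 4 passing genes per list by smallest adjusted p with MRPL39, ACO1, PPRC1 and members shared by both tables added, and the 5 genes most like the mean profile, apart from results that are not reported here. The members and lists were chosen with earlier results of these data known.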

Additional observations from a re-analysis of the deposited data

How the results depend on the processing

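All 4 genes of the RSL3 table and all 7 of the ATOH8 table kept a higher mean in RSL3 and in oeATOH8 under every setting tried. The number passing with RSL3 was 3. It was 4 with a replicate block, with edgeR or DESeq2 on recovered reads, with both libraries numbered 1 left out or given a term of their own, and it was 1 by totals, TMM or relative log expression scaling. It was 0 with 59792 annotated genes counted as tests or, chosen after seeing the data, with libraries 2 and 3 averaged, and 0 to 4 with 1 library left out. Before adjustment, the limma p of the 4 genes was 0.00477 to 0.0427. The median log2 fold change of the 4 was 0.68, 0.21 by totals scaling, and 0.48 to 0.92 with 1 library left out. Those scalings moved the median of all listed genes by -0.47, -0.29 and -0.31, and the share of passing genes that were higher was 24.3%, 30.0% and 28.8%, against 52.6%. All listed genes passing numbered 1421 of 1732. Of the same 1732 genes, 1720 passed with the block, 1561 with edgeR, 1727 with DESeq2 and 1729 with a term for number 1. By totals, TMM and relative log expression scaling 634, 926 and 898 passed. With both libraries numbered 1 left out, 1758 of 1778 passed. The number was 6 without DMSO library 2 and 8 without DMSO library 3. Why these calls were lost was not tested. In the ATOH8 table all 7 passed under every setting, with a replicate block too. Their median of 1.13 was 0.67 by totals, 1.43 by TMM and 2.03 by relative log expression scaling, which moved the median of all listed genes by -0.46, 0.31 and 0.91, and was 1.10 to 1.20 with 1 library left out. The listed genes alone set the depth known here.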
